A study of Homo sapiens with 6 samples.

Results

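Mitochondria fold and clear their own proteins with a set of nuclear-encoded chaperones and proteases, and 10 of these genes are described here: HSPD1, HSPE1, HSPA9, LONP1, CLPP, CLPX, YME1L1, AFG3L2, SPG7 and OMA1. They were chosen by name, and every probe set (a group of array probes summarised as 1 value) whose only gene symbol in the platform annotation was one of them was taken. These 10 genes, of 19775 with such a probe set on the array, had 39 probe sets. RNA came from IMR32, an established human neuroblastoma cell line in which MYCN is amplified, and was measured on 6 Affymetrix arrays. In the control group, 3 arrays, the cells received 0.1% DMSO for 24 h; in the other, 3 arrays, they received 118 µM teriflunomide for 24 h. Teriflunomide inhibits dihydroorotate dehydrogenase, an enzyme of pyrimidine synthesis in the mitochondrial inner membrane, and the comparison asked how RNA levels differed between drug and vehicle. The sources do not say whether DMSO was also in the drug wells, or whether the biological replicates of a group came from separate cultures. If they did not, the p-values describe the spread between arrays, which may be technical.

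As background, most mitochondrial proteins are imported unfolded. HSPA9 draws them into the matrix, and the HSPD1 ring with its HSPE1 lid gives them a chamber to fold in. LONP1 and the CLPX-CLPP pair degrade damaged matrix proteins, while YME1L1 and the AFG3L2-SPG7 complex do so at the inner membrane. OMA1 is an inner membrane peptidase that becomes active when mitochondria are stressed. Several of these genes are known targets of the mitochondrial unfolded protein response, a transcriptional response to misfolded mitochondrial proteins.

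After teriflunomide, the matrix protease LONP1 was 2.31-fold higher, and HSPA9, CLPX and CLPP were higher by smaller amounts. The chaperonin lid HSPE1 was 1.88-fold lower, and its ring partner HSPD1, the inner membrane protease AFG3L2 and the peptidase OMA1 were lower too. Of the 10 genes, 9 passed the filter on dim probe sets and were tested with limma, and they lay far above it on all 6 arrays; SPG7 did not pass. Of those 9, 4 rose, 4 fell and 1, YME1L1, did not pass the threshold of an adjusted p under 0.05. Over all 11998 genes tested, 29.7% rose and 28.9% fell, so a change in either direction was common in these cells. Among brighter genes it was more common. With the filter moved to the 75th percentile, which the 9 also passed, 71.4% of all genes rose or fell. For all 9 genes the 3 teriflunomide arrays lay wholly above or wholly below the 3 DMSO arrays, as they did for 67% of all tested genes. The median log2 fold change of the 9 was 0.13 against 0.0015 for all genes, and their median absolute log2 fold change was 0.33 against 0.29. Ordered by log2 fold change, LONP1 stood at percentile 96.5 of the tested genes and HSPE1 at percentile 5.41. RNA was taken from whole cultures, so fewer cells of a kind and less RNA per cell cannot be told apart.

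**Figure D1:**
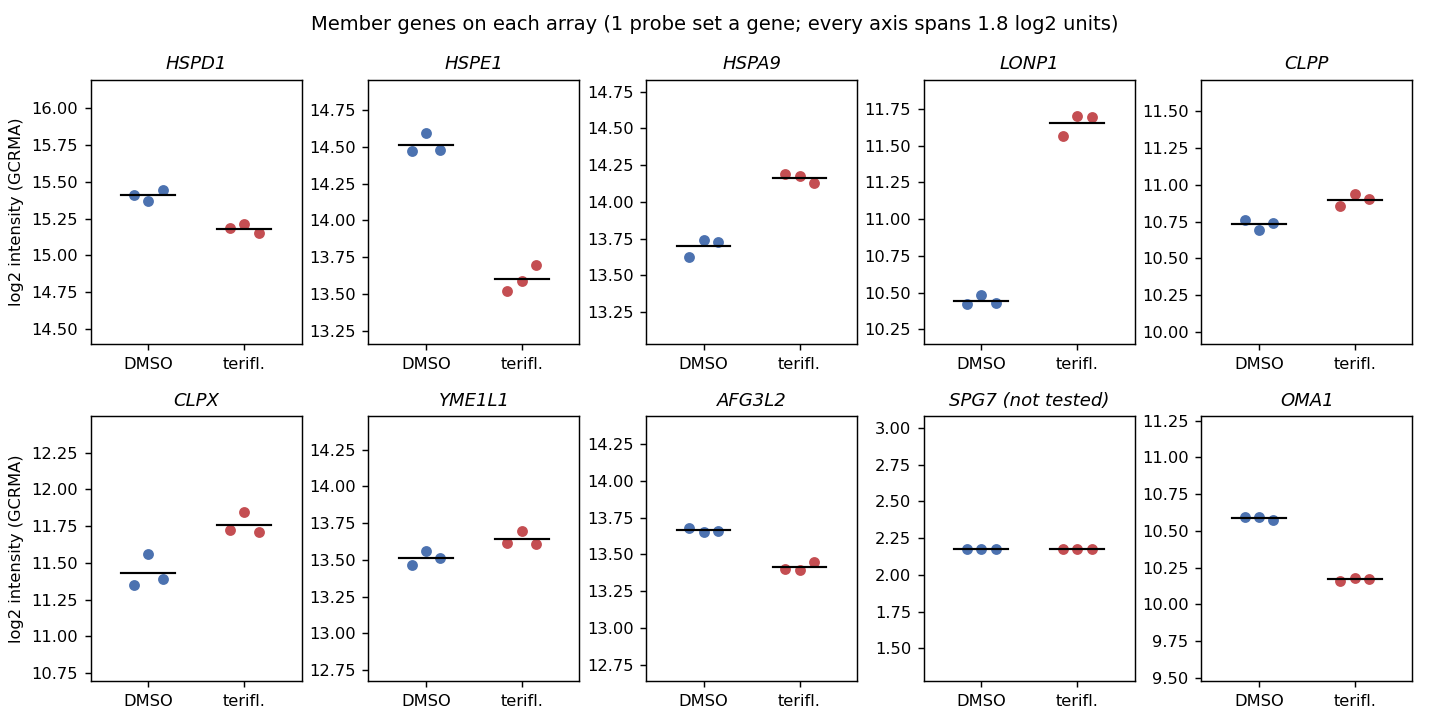
Log2 intensity (y axis) of each of the 10 genes on the 3 DMSO (blue) and 3 teriflunomide (red, terifl.) arrays; points are arrays and bars are group means. Every panel spans the same number of log2 units, so gaps can be compared between genes but heights cannot. LONP1 shows the widest gap, from a mean of 10.45 to 11.65, and SPG7 lies at the floor of 2.18 on all 6 arrays.

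**Figure D2:**
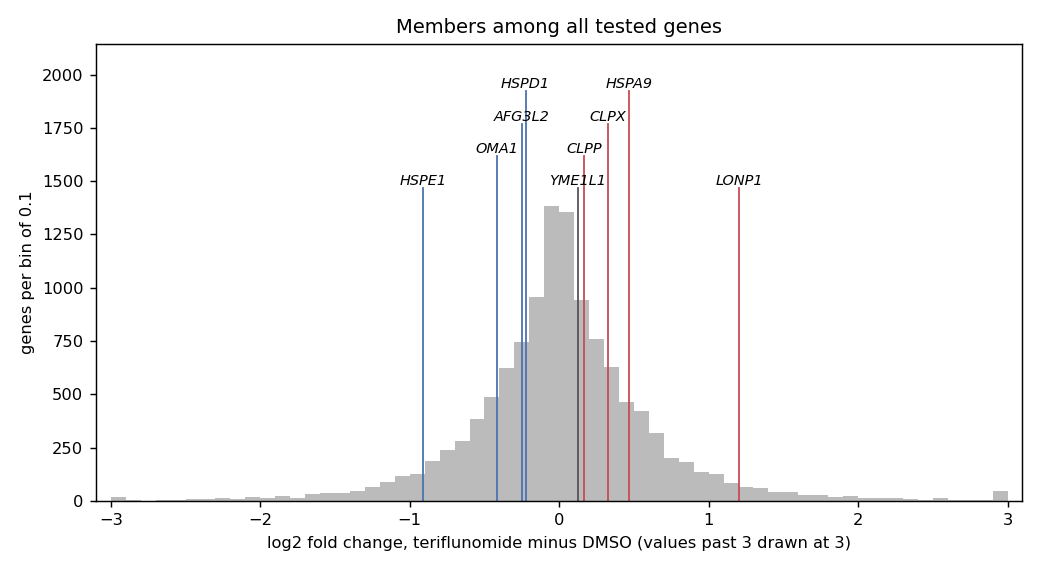
Number of tested genes (y axis) in each bin of log2 fold change, teriflunomide minus DMSO (x axis), over 11998 genes in grey. Vertical lines mark the 9 tested members (red higher, blue lower, dark grey not past the threshold), which run from -0.91 for HSPE1 to 1.21 for LONP1.

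Across the table, the lowest value was 2.18 on every array, and between 33.8% and 34.2% of the probe sets lay at it. Pearson's r over all probe sets was 0.998 to 0.999 within the groups and 0.989 to 0.990 between them. The line's markers were checked. PHOX2A, GATA3, CHGA and MYCN were bright, HAND2 was at 6.96 in DMSO, DBH was near the floor at 3.41 and TH was at 2.18. The HAND2 probe set read 6.92, 7.03 and 6.92 in DMSO and 6.92 on every teriflunomide array, so whether it followed the RNA level is unclear. MYCN itself fell by 0.43 (SE 0.05, limma adjusted p = 0.000841). CHGA changed by -1.46 (limma adjusted p = 5.21e-05). PHOX2A rose by 0.76 and GATA3 by 0.35 (limma adjusted p = 6.00e-05 and 0.00843), while HAND2 and DBH did not pass the threshold. The sum of log2 values over the 7 measured markers was 65.0 to 66.4 in DMSO and 63.4 to 64.0 with teriflunomide. All 3 measured blood markers and all 3 endothelial markers lay near the floor, with summed values of 6.54 and of 6.58 in either group. Of 4 epithelial markers, CDH1 lay at the floor, and EPCAM stood at 2.73, KRT18 at 4.59 and MUC1 at 6.78 in DMSO. MUC1 changed by -0.64 (limma adjusted p = 0.00704), and EPCAM and KRT18 did not pass the threshold. The sum of the 4 was 16.1 to 16.5 in DMSO and 15.2 to 15.8 with teriflunomide. Of 3 fibroblast markers, DCN lay at the floor, and with COL1A1 and LUM bright the sum was 24.2 to 24.5 in DMSO and 25.9 to 26.0 with teriflunomide. COL1A1 rose by 0.94 and LUM by 0.61 (limma adjusted p = 7.58e-05 and 0.00114). The 3' minus 5' signal of the ACTB control probe sets reports on how intact the labelled RNA was. It stood at 1.36 ± 0.03 on the control arrays and 1.62 ± 0.07 on the treated arrays (log2, SD, n = 3 each, two-sided exact permutation p = 0.1, the smallest possible here). For GAPDH it was 0.05 and 0.06 (exact permutation p = 0.4). The part of the markers and of the 3' to 5' signal in the results that follow was not tested.

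HSPD1 and HSPE1 lie head to head on chromosome 2, so their promoters are shown first: they share 204 bases in the RefSeq tables. Each promoter is written 5' to 3' along its own gene, with the E-box CACGTG, a site for MYC-family and related factors, in capitals. The HSPD1 promoter is chr2:197500225-197500524 on the minus strand and the HSPE1 promoter chr2:197500129-197500428 on the plus strand, both in build GRCh38.p14. 104 bases lie between the start sites. Their E-box is the same 6 bases, chr2:197500357-197500362, starting 88 bases before the HSPD1 start site and 22 before that of HSPE1.
HSPD1: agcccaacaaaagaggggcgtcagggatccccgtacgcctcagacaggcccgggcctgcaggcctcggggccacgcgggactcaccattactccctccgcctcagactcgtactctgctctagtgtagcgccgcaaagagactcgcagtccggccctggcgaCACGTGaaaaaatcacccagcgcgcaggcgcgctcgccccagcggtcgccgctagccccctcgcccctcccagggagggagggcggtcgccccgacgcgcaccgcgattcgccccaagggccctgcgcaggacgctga
HSPE1: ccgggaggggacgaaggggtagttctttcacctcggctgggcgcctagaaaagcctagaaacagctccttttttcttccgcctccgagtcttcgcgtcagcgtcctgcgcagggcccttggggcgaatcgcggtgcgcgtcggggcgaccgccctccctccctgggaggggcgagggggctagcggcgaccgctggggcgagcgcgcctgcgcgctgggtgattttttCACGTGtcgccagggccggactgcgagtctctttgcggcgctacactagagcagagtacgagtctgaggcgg

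HSPE1, which encodes the lid of the chaperonin, had 1 probe set. It read 14.47, 14.59 and 14.48 on the DMSO arrays and 13.52, 13.59 and 13.70 with teriflunomide (log2 intensity). Every treated array lay below every control array by more than the spread in either group. The mean went from 14.51 ± 0.07 to 13.60 ± 0.09 (SD, n = 3), a log2 fold change of -0.91 (SE 0.06, limma adjusted p = 0.000162).

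HSPD1, which encodes the ring, had 5 probe sets, of which 4 passed the filter and all 4 fell. The brightest stood for the gene and read 15.41, 15.37 and 15.44 in DMSO against 15.18, 15.21 and 15.15 with teriflunomide, near the highest values of these arrays, which lay between 16.2 and 16.3. The difference was -0.23 (log2, SE 0.04, limma adjusted p = 0.00317 over genes), small but larger than the spread between arrays. The second bright probe set, 200806_s_at, changed by -0.36 from a DMSO mean of 14.15.

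A dimmer HSPD1 probe set, 243372_at, moved further. It read 8.70, 8.86 and 8.66 in DMSO and 7.50, 7.29 and 7.55 with teriflunomide, a log2 fold change of -1.29 (SE 0.09, limma adjusted p = 0.000301 over the probe sets tested). The fourth, 241716_at, was near the floor, at 4.59, 3.49 and 3.64 against 2.92, 2.73 and 2.69. Its change of -1.13 was called, but it became 0 with values under log2 5 raised to 5. The call was also lost without DMSO replicate 3 or without any of the teriflunomide replicates (adjusted p = 0.0550 to 0.0924 by limma). With no filter the call was lost too (limma adjusted p = 0.111). All 4 probe sets thus read lower, while the size of the fall ran from -0.23 to -1.29, and the mean of the 4 gave -0.75. The remaining one, 243845_at, stayed between 2.23 and 2.26 and was not tested.

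Whether the lid fell further than the ring depends on the HSPD1 probe set. HSPE1 changed by -0.91, the bright HSPD1 probe sets by -0.23 and -0.36, and the dimmer ones by -1.29 and, near the floor, -1.13. With the brightest, the log2 value of HSPE1 minus HSPD1 was -0.94, -0.78 and -0.96 on the DMSO arrays and -1.66, -1.63 and -1.45 with teriflunomide, with no overlap. The difference in response was -0.69 (SE 0.09, 95% interval -0.93 to -0.44, two-sided exact permutation p = 0.1, or 0.15 adjusted over 3 pairs). With a plain-suffix HSPD1 probe set preferred, it was 0.38, the opposite direction, and with the mean of the HSPD1 probe sets it was -0.16. With 3 arrays against 3 the exact test cannot give a p below 0.1.

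HSPA9, the mitochondrial Hsp70 (mortalin), moved the other way. It had 4 probe sets, of which 3 passed the filter, and all 3 rose. The brightest read 13.63, 13.74 and 13.72 in DMSO and 14.19, 14.17 and 14.13 with teriflunomide. The lowest treated array stood above the highest control array. The log2 fold change came to 0.47 (SE 0.04, limma adjusted p = 0.000451), or 1.38-fold. The others changed by 0.40 (200692_s_at) and 0.32 (200690_at). The fourth, 232200_at, read 2.49 on all 6 arrays and was not tested.

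LONP1, an ATP-dependent protease that clears oxidised and misfolded matrix proteins, had the largest change of the 9 genes where the brightest probe set stood for each; dimmer probe sets of HSPD1 (-1.29) and YME1L1 (1.24) moved further. Its 1 probe set read 10.43, 10.48 and 10.43 in DMSO and 11.56, 11.70 and 11.69 with teriflunomide. The gap between the groups was many times the spread within either. The mean went from 10.45 ± 0.03 to 11.65 ± 0.08 (SD, n = 3), a log2 fold change of 1.21 (SE 0.05, limma adjusted p = 4.19e-05).

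The promoters of the pair that rose most are shown because they also hold the E-box, in capitals as above. The HSPA9 promoter is chr5:138575352-138575651 on the minus strand, with its E-box 19 bases before the start site. The LONP1 promoter is chr19:5720097-5720396 on the minus strand, with E-boxes 212 and 49 bases before the start site. Both are from RefSeq, build GRCh38.p14.
HSPA9: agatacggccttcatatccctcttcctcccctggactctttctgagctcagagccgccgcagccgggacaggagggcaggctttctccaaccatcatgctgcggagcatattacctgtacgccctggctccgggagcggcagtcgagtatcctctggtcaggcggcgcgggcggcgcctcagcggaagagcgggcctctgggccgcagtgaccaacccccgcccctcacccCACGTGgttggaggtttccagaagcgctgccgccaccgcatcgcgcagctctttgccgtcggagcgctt
LONP1: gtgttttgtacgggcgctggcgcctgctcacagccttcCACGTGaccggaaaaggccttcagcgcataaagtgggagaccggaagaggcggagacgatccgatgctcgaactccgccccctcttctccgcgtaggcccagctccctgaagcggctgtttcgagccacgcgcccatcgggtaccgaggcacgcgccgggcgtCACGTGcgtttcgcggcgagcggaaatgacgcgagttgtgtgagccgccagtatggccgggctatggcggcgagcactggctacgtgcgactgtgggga

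Of the 10 members, 8 had a promoter in the RefSeq table, 11 promoters in all since HSPD1, LONP1 and SPG7 had 2 each. CACGTG, searched on both strands, was in 4 of the 11, 1 each for HSPD1, HSPE1, HSPA9 and LONP1, and in 7.26% of all 35116 promoters of that length. It thus lay before genes that fell and genes that rose. The HSPD1 and HSPE1 matches are the same site and do not count as independent. The C/EBP-ATF composite element, written TGATGNAAN and bound by ATF4 with C/EBP proteins, matched 0 of the 11 promoters and 3.61% of all. The heat shock element core, written GAANNTTC, matched 1 of the 11, the second HSPD1 promoter at 240 bases before its start site, and 6.77% of all. These are matches of letters in a short window and say nothing of binding.

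CLPX and CLPP form one protease: CLPX unfolds the substrate and CLPP cuts it. CLPX had 2 probe sets and both rose. The brighter read 11.35, 11.56 and 11.39 in DMSO and 11.72, 11.85 and 11.71 with teriflunomide, a log2 fold change of 0.33 (SE 0.07, limma adjusted p = 0.0112). Its DMSO replicate 2 lay nearest to the treated arrays. The other, 223507_at, read 9.44, 9.55 and 9.54 against 10.02, 9.94 and 9.91, a change of 0.44. Over the probe sets tested, the call of the brighter one, 204809_at, was lost without DMSO replicate 3 (0.31, limma adjusted p = 0.0561). With no filter that call was lost too (limma adjusted p = 0.0527).

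CLPP had 1 probe set, which read 10.76, 10.69 and 10.74 in DMSO and 10.86, 10.94 and 10.90 with teriflunomide. The groups did not overlap, but the gap between the nearest arrays was small. The log2 fold change came to 0.17 (SE 0.04, limma adjusted p = 0.0111), or 1.12-fold. CLPX minus CLPP differed between drug and vehicle by 0.16 (SE 0.09, 95% interval -0.09 to 0.41, exact permutation p = 0.3, adjusted p = 0.3 over 3 pairs), so a difference between unfoldase and peptidase was not detectable with these arrays.

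At the inner membrane, AFG3L2, a subunit of the protease that faces the matrix, fell on all 3 of its probe sets. The brightest read 13.68, 13.65 and 13.66 in DMSO and 13.40, 13.39 and 13.45 with teriflunomide. The spread within a group was far smaller than the gap. The log2 fold change came to -0.25 (SE 0.03, limma adjusted p = 0.00124). The second, 202486_at, changed by -0.30 from a DMSO mean of 10.09. The dimmest, 232919_at, with a DMSO mean of 4.96, changed by -0.24. That call was lost with values under log2 5 raised to 5 (-0.02). It was lost with no filter and with trended and robust eBayes (limma adjusted p = 0.0878 and 0.0824). Leaving out DMSO replicate 1, DMSO replicate 3 or any of the teriflunomide replicates also lost it (limma adjusted p = 0.0541 to 0.0824).

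SPG7, which encodes paraplegin, the partner of AFG3L2, could not be followed. Its 1 probe set with a single symbol lay at the floor of 2.18 on all 6 arrays. A further 6 probe sets list SPG7 together with another gene and were left out, so no direction is given for SPG7 and AFG3L2 was not compared with it.

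OMA1 cleaves the fusion protein OPA1 and the stress messenger DELE1 when it is activated. Its 1 probe set read 10.59, 10.60 and 10.57 in DMSO and 10.16, 10.18 and 10.17 with teriflunomide. Each group lay within a few hundredths of a log2 unit, and the groups were far apart. The log2 fold change came to -0.42 (SE 0.03, limma adjusted p = 0.000137), or 1.34-fold lower. Another 1 probe set lists OMA1 together with a second gene and was left out.

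YME1L1, the protease that faces the intermembrane space and also cuts OPA1, was the least clear. The annotation gives it 20 probe sets, of which 15 lay at the floor of 2.18 on all 6 arrays and 1 more within a hundredth of it; whether these measure YME1L1 was not tested. The brightest read 13.47, 13.56 and 13.51 in DMSO and 13.61, 13.70 and 13.61 with teriflunomide. The groups did not overlap, yet the change of 0.13 (SE 0.04) had a limma adjusted p of 0.0504, just above the threshold of 0.05. Over 15 alternatives the value ran from 0.10 to 0.33 and the adjusted p from 0.00249 to 0.130, and 6 of them called it higher, among them the fit without DMSO replicate 2 (0.15, adjusted p = 0.0473).

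The other bright YME1L1 probe sets were not called. 201351_s_at stood at 12.92 and 12.87 in the groups, a difference of -0.05, and 216304_x_at at 12.75 in each, a difference of 0.01 (limma adjusted p = 0.293 and 0.909). A dimmer one, 232216_at, rose. It read 6.63, 6.96 and 6.57 in DMSO and 7.95, 7.91 and 8.01 with teriflunomide, a change of 1.24 (SE 0.11, limma adjusted p = 0.000674). The mean of the 4 tested probe sets gave 0.33.

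YME1L1 and OMA1 both cut OPA1, so their responses were compared within arrays. YME1L1 minus OMA1 was 2.87, 2.97 and 2.94 in DMSO and 3.45, 3.52 and 3.44 with teriflunomide. The treated arrays were all higher, by 0.54 (SE 0.04, 95% interval 0.44 to 0.65, exact permutation p = 0.1, adjusted p = 0.15 over 3 pairs).

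**Figure D3:**
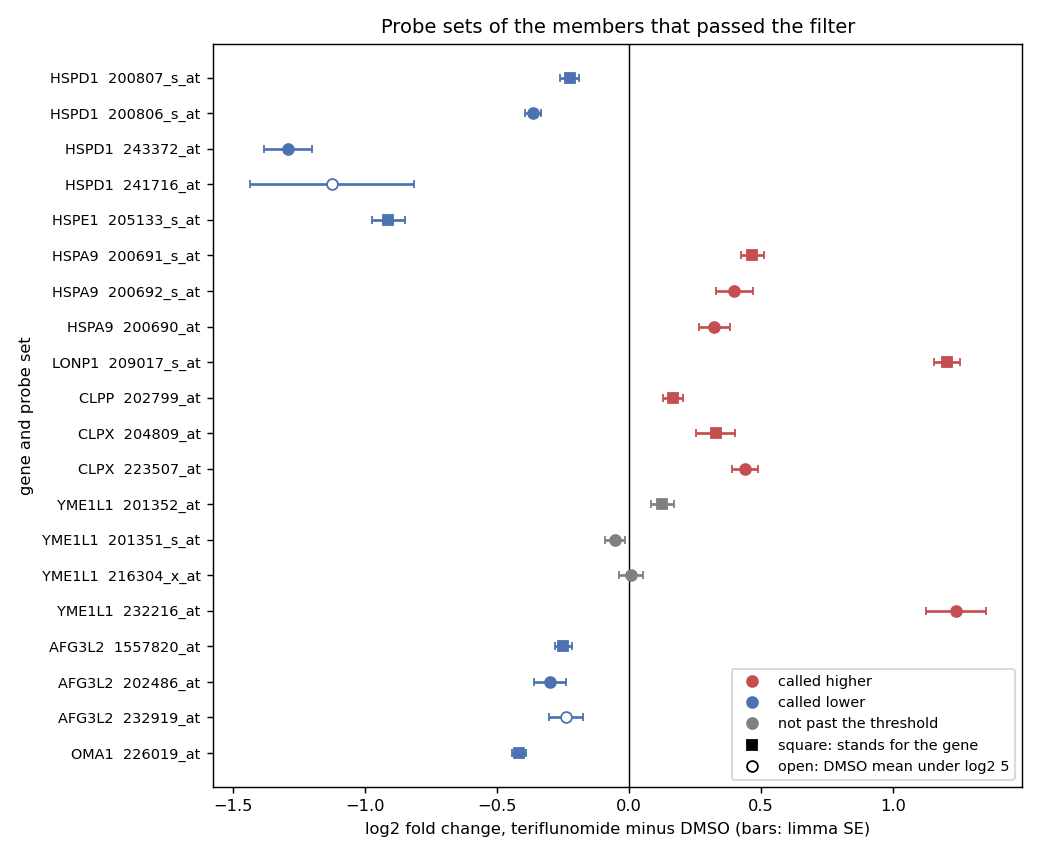
Log2 fold change, teriflunomide minus DMSO, with limma's SE (x axis) for the 20 member probe sets that passed the filter (y axis); squares stand for the gene, and open symbols have DMSO means under log2 5. HSPD1, HSPA9, CLPX and AFG3L2 keep one direction on all their probe sets, while of the 4 YME1L1 probe sets only 232216_at, at 1.24, was called.

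Counted by probe set, 20 of the 39 passed the filter, of which 8 rose, 9 fell and 3 did not pass the threshold. Over all 27290 probe sets tested, 23.7% rose and 25.2% fell. No member had probe sets called in opposite directions. Probe sets of 1 gene may read the same RNA, so they do not count as independent.

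Further genes of mitochondrial protein quality control were read from the same fit, in 4 lists. The co-chaperones and other chaperones were mostly lower. All 8 were tested: 5 fell (62.5%), 2 rose (25%) and 1 missed the threshold, beside 28.9% lower and 29.7% higher over all genes. The median log2 fold change of the 8 was -0.30, against 0.0015 for all genes. GRPEL1, the nucleotide exchange factor that resets HSPA9, fell by 0.97 (SE 0.03, limma adjusted p = 2.75e-05), from 11.44 ± 0.01 to 10.47 ± 0.04 (SD, n = 3). Its homologue GRPEL2 rose by 0.31 (SE 0.07), a call lost with the mean of its probe sets. BCS1L, which assembles the Rieske protein into complex III, fell by 0.91 (SE 0.03). DNLZ, which keeps HSPA9 soluble, fell by 0.40. The DNLZ call was lost without DMSO replicate 1 or 3 or teriflunomide replicate 1 or 3 (adjusted p = 0.0708 to 0.106 by limma). No filter, values under log2 5 raised to 5, and the replicate number as a block also lost it (limma adjusted p = 0.101, 0.056 and 0.0868). CLPB, a disaggregase of the intermembrane space, rose by 0.19, a call lost without any of the DMSO replicates or teriflunomide replicate 1 or 2 (adjusted p = 0.0561 to 0.100 by limma). No filter, the mean of its probe sets and the block also lost the CLPB call (limma adjusted p = 0.0778, 0.298 and 0.0802). HSPA9 was thus higher and GRPEL1 lower in every alternative, while the calls of GRPEL2 (higher) and DNLZ (lower) were lost in some.

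Of 13 other proteases and peptidases, 12 were tested: 5 fell (41.7%), 3 rose (25%) and 4 missed the threshold. Over all genes, 28.9% fell and 29.7% rose. The median of the list was -0.08, against 0.0015 for all genes. IMMP1L, a subunit of the inner membrane peptidase, fell by 1.46 (SE 0.06, limma adjusted p = 4.15e-05) on one probe set and changed by -0.18 on another. XPNPEP3, an aminopeptidase that trims imported proteins, fell by 1.41 on the probe set used, but its probe sets ran from -1.41 to 1.86 with calls in opposite directions, so its direction is not settled. METAP1D, a methionine aminopeptidase, fell by 1.03 (SE 0.19). LACTB, a filament-forming protein of the intermembrane space, rose by 0.68 (SE 0.08) and on all 3 probe sets. HTRA2, an intermembrane space serine protease, rose by 0.27, while its other probe set stood at -0.03. PMPCB, the catalytic subunit of the processing peptidase, rose by 0.23, a call lost without DMSO replicate 1 or 3 or teriflunomide replicate 1 or 2 (adjusted p = 0.0849 to 0.0912 by limma). PMPCA, its partner, named with its value known, fell by 0.57 (SE 0.04). AFG1L lay near the floor at 2.34 and was not tested.

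Partners and substrates of the member proteases went both ways. Of these, 9 were tested: 3 fell (33.3%), 2 rose (22.2%) and 4 missed the threshold, beside 28.9% lower and 29.7% higher over all genes. The median was 0.02 and the median absolute change 0.26, against 0.29 for all genes. PINK1, the kinase that marks damaged mitochondria for removal, rose by 1.15 (SE 0.07, limma adjusted p = 0.000133). OPA1, the fusion protein cut by OMA1 and YME1L1, rose by 0.17 (SE 0.04); its 3 probe sets ran from -0.13 to 0.50. PGAM5, a mitochondrial phosphatase, fell by 0.65 (SE 0.09). PHB1, the prohibitin that surrounds the AFG3L2 complex, fell by 0.34 (SE 0.06). TFAM, a DNA-packaging protein degraded by LONP1, fell by 0.26, and each of its 4 probe sets was called lower. The TFAM call was lost without DMSO replicate 2 or 3 or teriflunomide replicate 1 or 3 (adjusted p = 0.0731 to 0.0803 by limma). STAR lay near the floor and was not tested.

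The factors linked to the mitochondrial unfolded protein response were higher in 6 of 9 cases (66.7%) and lower in 2 (22.2%). Over all genes, 29.7% were higher and 28.9% lower. The median of the list was 1.10, against 0.0015 for all genes. DDIT3 (CHOP) rose by 4.89 (SE 0.11), ATF5 by 4.16 (SE 0.19) and CEBPB by 1.90 (SE 0.06), with limma adjusted p-values of 1.54e-05, 5.39e-05 and 2.60e-05. ATF4, named with its value known, rose by 1.10 (SE 0.05). ATF5 had 4 tested probe sets, which ran from 0.06 to 4.42 and of which 2 rose; their mean gave 2.23. SIRT3, a mitochondrial deacetylase, fell by 0.35 in the fit over genes, while its other probe set stood at 0.08 and neither was called in the fit over probe sets. The SIRT3 call was lost without DMSO replicate 2 or 3 or teriflunomide replicate 1 or 3 (adjusted p = 0.105 to 0.114 by limma). NRF1, a regulator of mitochondrial biogenesis, fell by 0.32, but its 5 probe sets ran from -0.32 to 0.77 with calls in opposite directions, and the call was lost without teriflunomide replicate 2 (adjusted p = 0.0544 by limma). HSF1, the heat shock factor, also named with its value known, rose by 0.19, a call lost without DMSO replicate 2 or 3 or teriflunomide replicate 1 or 3 (adjusted p = 0.0605 to 0.0661 by limma). The lists were chosen with results of these arrays known, so their counts are a description.

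**Figure D4:**
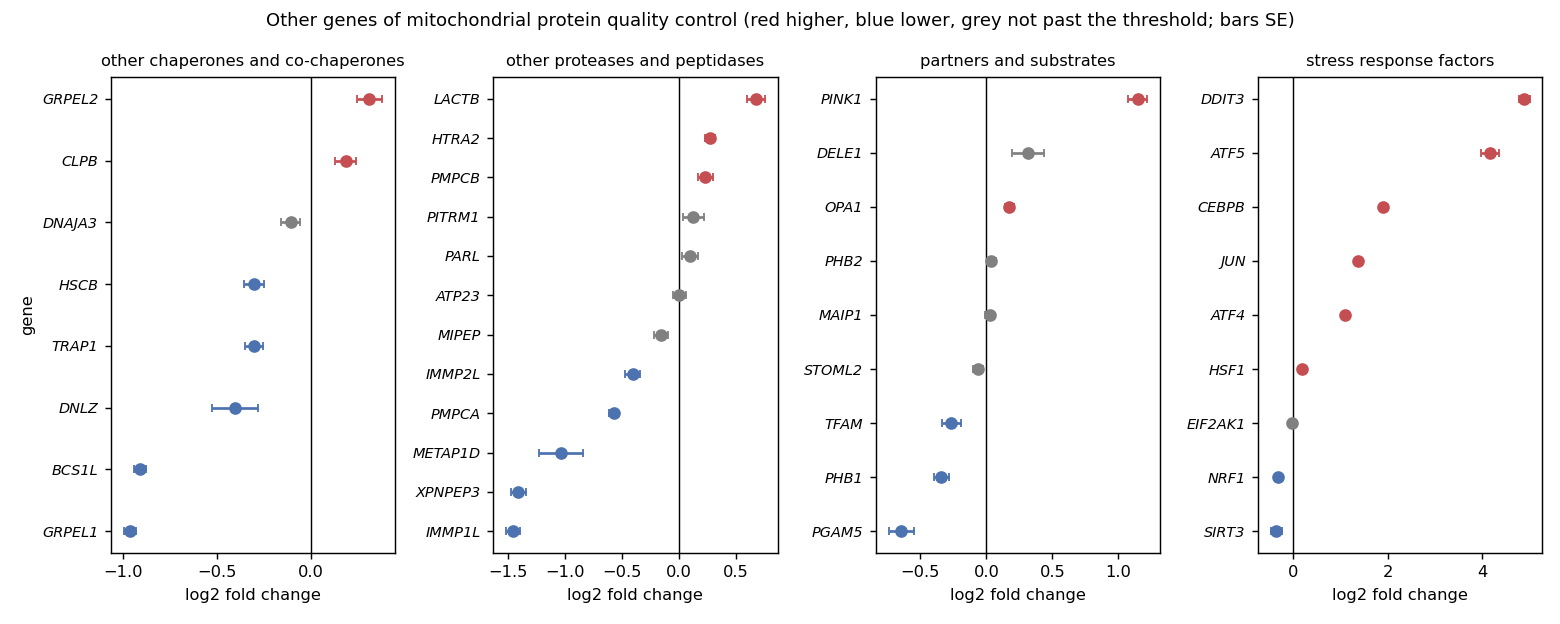
Log2 fold change, teriflunomide minus DMSO, with limma's SE (x axes, each with its own range) for the tested genes of the 4 lists (y axes); red is called higher, blue called lower, grey not past the threshold. GRPEL1 and BCS1L stand lowest among the chaperones, at -0.97 and -0.91, and DDIT3 highest among the factors, at 4.89.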

How the data were processed

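RNA of 6 samples was measured on Affymetrix arrays. Per the submitters' processing notes, the authors used GCRMA (version and settings: not given in the sources used here), and the deposited values are log2 intensities, 1 for every probe set on each array. GCRMA models background from probe sequence and brings arrays to a common distribution, so dim values and shifts common to all genes are uncertain. Arrays have no read depth; their number limits precision.

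Of 54675 probe sets, 41097 had 1 gene symbol, 1801 several and 11777 none. Control probe sets were left out. A probe set was tested if 3 or more arrays had it at their median or higher (27290 passed). The brightest stood for a gene (11998 genes). The drug arrays were set against the DMSO arrays in limma 3.58.1 (R 4.3.3; lmFit, eBayes, no covariates, two-sided), with Benjamini-Hochberg adjustment over genes, or over probe sets where an ID is given. The fit was tested on simulated data. Pairs of genes were compared by exact permutation tests; their 95% intervals use the pooled SD. Promoters, 250 bases before to 50 after a start site, came from RefSeq tables (GRCh38.p14; Python 3.11.15).

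The members, lists and alternatives were chosen with earlier results of these data known. All members are named, with up to 3 rises and 3 falls of each list; other genes are marked as named with their values known, that is, chosen after these were seen. Alternatives were dropping the filter, moving it to the 75th percentile, raising values under log2 5 to 5, centring, quantile normalization, averaging a gene's probe sets, preferring plain-suffix probe sets, trended and robust eBayes, the replicate number as a block, and leaving out each array. Settings for the pairs and the lists were added after seeing the data. Some list genes are not reported here.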

Additional observations from a re-analysis of the deposited data

How the results depend on the processing

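Of the 10 member genes, 4 were called higher and 4 lower; over 15 alternatives the counts were 3 to 5 higher and 4 lower in each. LONP1, HSPE1, HSPD1, HSPA9, CLPX, AFG3L2 and OMA1 kept direction and call in all 15. HSPD1 ran from -0.21 to -1.29, the largest with a plain-suffix probe set. With the replicate block, 3 members were called higher, since CLPP missed the threshold (limma adjusted p = 0.0506); no other member gene's call changed. Deviations of same-numbered arrays had correlations of 0.04, 0.10 and -0.09, and those of different numbers ran from -0.16 to 0.14. No shared deviation was thus seen, but with 3 arrays a group these values cannot tell whether the numbers pair the samples. The response of HSPE1 minus HSPD1 was -0.16 with the mean of probe sets and 0.38 with plain-suffix probe sets, and that of YME1L1 minus OMA1 was 0.75 with the mean; those alternatives use other probe sets. Directions also turned in the lists: PARL (-0.40), DELE1 (-1.05) and SIRT3 (0.0763) with plain-suffix probe sets, and NRF1 (0.0900) with the mean. In the main fit PARL (0.10) and DELE1 (0.31) had not passed the threshold (limma adjusted p = 0.281 and 0.0747). DELE1 had probe sets called in opposite directions. PARL and DELE1 are named because of these values. Without a filter 30.4% of all genes were called, against 58.6%, as dim genes enter the test. With the filter at the 75th percentile, which all 9 tested members passed, 71.4% were called. The other chaperones called higher went from 2 to 1 with no filter, the block or 1 of 5 arrays left out, and to 0 with the mean of probe sets. The stress factors called lower went from 2 to 1 in 11 alternatives. Centring or quantile normalization moved the median of all genes to 0.01. The array medians used for centring lay near the floor, at 2.63 to 2.66, so centring could not show a shift among bright genes. The number of arrays limits small changes such as those of CLPP and YME1L1.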
